A study of Mus musculus with 6 samples.

Results

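The replication-dependent histone genes encode the bulk of the protein that packs newly made DNA into nucleosomes. They were taken as every row of the count table whose symbol starts with Hist1h, Hist2h, Hist3h or Hist4h. This gave 64 of 21671 named genes: 6 for the linker histone H1, 15 for H2a, 19 for H2b, 11 for H3 and 13 for H4. One of them, Hist3h2bb-ps, is a pseudogene by its symbol. By annotated position, 52 lie in the Hist1 cluster on chromosome 13, 8 in the Hist2 cluster on chromosome 3, 3 in the Hist3 cluster on chromosome 11 and 1, Hist4h4, on chromosome 6. After a filter on low counts 58 could be tested: all 6 of H1, 13 of H2a, 15 of H2b, all 11 of H3 and all 13 of H4.

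RNA came from subcutaneous tumours in CD1 nude ho mice, an immunodeficient strain, grown from injected transformed hepatoblasts. The hepatoblasts held TtRMPVIR shST18, a vector whose short hairpin RNA against St18 is made when doxycycline is present. The doxycycline group is 3 libraries of tumours taken 4 h after doxycycline by gavage (200 mg/ml in 300 µl of water), with the genotype label ST18 knockdown. The untreated group is 3 libraries with the genotype label wild type, and the protocol text that names the vector is given for these libraries too. Effects of the drug, of the gavage and of the hairpin cannot be told apart in this design. The labels give no age and no animal for any library, so the p-values may reflect only technical spread among libraries.

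Libraries held 12090309 to 15899374 counts after doxycycline and 13148155 to 16169043 when untreated. St18, the target of the hairpin, had 34, 12 and 61 counts in libraries labelled ST18 knockdown, against 12, 23 and 19 counts in untreated libraries, which is no fall. Of the 15 hepatoblast, hepatocyte and biliary markers examined, 10 had enough counts to be tested and none was at 0 in all libraries. Albumin was close to absent, with 0, 2 and 0 counts after doxycycline and 2, 2 and 1 when untreated. Sox9 had 394 to 427 counts after doxycycline and 382 to 504 when untreated. The marker of this list that passed the threshold, Gpc3, had 78, 20 and 91 counts after doxycycline and 5, 8 and 6 when untreated (log2 fold change 3.37, edgeR adjusted p = 0.0261). Across the transcriptome 744 of 14809 genes tested passed an adjusted p of 0.05 in edgeR's quasi-likelihood test (5.02%), 2.84% higher and 2.18% lower after doxycycline.

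Replication-dependent histone genes are switched on at the start of S phase, when NPAT, a substrate of the kinase CDK2 with cyclin E, gathers at the histone clusters. Their mRNAs lack introns and, in dividing cells, mostly end in a stem-loop instead of a poly(A) tail. The stem-loop binding protein SLBP holds this structure, the U7 small nuclear ribonucleoprotein and the endonuclease CPSF3 cut after it, and the mRNA is broken down quickly when DNA synthesis stops. H2a, H2b, H3 and H4 form the nucleosome core, and H1 binds the DNA between cores. The RNA was depleted of ribosomal RNA before library preparation, so mRNAs without a poly(A) tail could be measured, although the labels do not state whether the kit's poly(A) step was left out.

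A stem-loop was found behind the stop codon of 41 genes in GENCODE M21 transcripts (build GRCm38), in 8 different forms of 16 bases. The most common form was carried by 21 genes of types H1, H2a, H2b and H3, and the next by 7 genes, all H4. For 17 of the 23 genes without one, the annotated transcript ends within 60 bases of the stop codon. One gene is shown for each of the 8 forms, because this structure is what sets the family's mRNAs apart and because the forms differ between types. Each is written as DNA, 5′ to 3′ on the gene's own strand, with the 16 bases of the stem-loop in capitals.
Hist1h3a (H3, chr13:23761885-23761910, minus strand): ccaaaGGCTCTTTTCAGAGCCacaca
Hist1h3f (H3, chr13:23544927-23544952, plus strand): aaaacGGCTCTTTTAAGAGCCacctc
Hist1h3g (H3, chr13:23535884-23535909, plus strand): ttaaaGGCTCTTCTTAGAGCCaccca
Hist2h2ac (H2a, chr3:96220413-96220438, minus strand): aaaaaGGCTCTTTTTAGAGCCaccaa
Hist4h4 (H4, chr6:136803993-136804018, minus strand): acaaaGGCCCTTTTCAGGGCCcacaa
Hist2h4 (H4, chr3:96262934-96262959, minus strand): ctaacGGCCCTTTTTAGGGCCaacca
Hist1h4b (H4, chr13:23757361-23757386, plus strand): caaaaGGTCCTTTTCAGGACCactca
Hist1h4a (H4, chr13:23760795-23760820, minus strand): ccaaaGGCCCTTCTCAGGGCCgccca
All 8 forms begin with GG and end with CC.

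No histone gene passed the adjusted threshold in either direction. Over the family, edgeR called 0 of 58 (5.02% of all genes tested), DESeq2 0 of 58 (11.4% of all genes) and limma-voom 0 of 58 (3.71% of all genes). DESeq2 gave no adjusted p for some members, among them Hist1h1t, Hist2h2aa1 and Hist1h4n, so these could not pass there. Only 1 gene, Hist1h2ai, had an unadjusted p below 0.05 in edgeR (23.9% of all genes). Every doxycycline library lay below every untreated one in CPM for 18 genes (14.4% of all genes) and above for 1 (15.2%), against 29.6% of all genes with no overlap in either direction. In unscaled counts this held for 16 genes that were lower (10.3% of all genes) and 1 that was higher (7.09%). The fitted log2 fold change was below 0 for 50 of 58 genes (48.9% of all genes), with a median of -0.17 against 0.01 over all genes tested. Standard errors ran from 0.087 for Hist1h1e to 0.59 for Hist1h4n.

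The summed family level was 859, 927 and 847 CPM (counts scaled to a common library total, with TMM factors) after doxycycline, against 1001, 896 and 949 CPM in untreated libraries. These ranges overlap, and the group means differed by -7.46%. This is a log2 ratio of -0.11, which was -0.072 without untreated replicate 1. The summed H3 level was 75.5, 81.5 and 81.6 CPM after doxycycline, against 101, 92.4 and 96.4 CPM in untreated libraries (79.5 ± 3.51 and 96.7 ± 4.51 CPM, SD, n = 3 each). The groups did not overlap for H3, and their means differed by -17.8%.

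The summed H2a level was 86.1, 109 and 103 CPM after doxycycline, against 122, 114 and 123 CPM in untreated libraries. The groups did not overlap here either, with means of 99.3 ± 11.8 and 120 ± 4.98 CPM (SD, n = 3 each) and a difference of -17.0%, or -0.27 on the log2 scale. Without doxycycline replicate 1 this log2 ratio was -0.18. Doxycycline replicate 1 was the lowest library for H2a. The other types had overlapping groups. Summed H4 was 145, 169 and 141 CPM after doxycycline and 180, 153 and 169 CPM when untreated. Summed H2b was 189, 206 and 190 CPM after doxycycline and 214, 190 and 201 CPM when untreated. Their means differed by -9.56% for H4 and by -3.25% for H2b. The log2 ratio for H4 was -0.14, and it was -0.23 without doxycycline replicate 2, -0.096 without doxycycline replicate 3 and -0.088 without untreated replicate 1. Summed H1 was 363, 362 and 332 CPM after doxycycline and 383, 346 and 360 CPM when untreated, with means that differed by -2.94%. An exact two-sided permutation test of 3 against 3 libraries cannot go below p = 0.1, so no p is given for these sums, and differences between types were not tested.

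**Figure D1:**
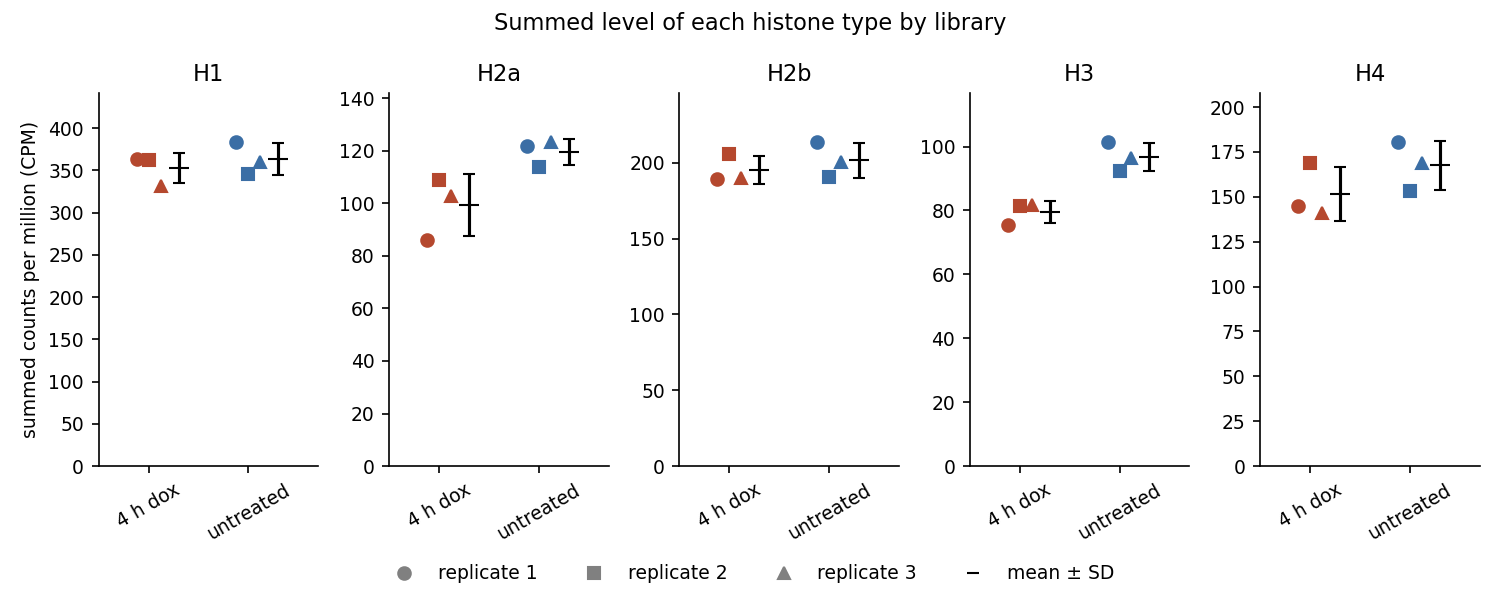
Summed level of the genes of each histone type (y axis, CPM, starting at 0) in 3 doxycycline and 3 untreated libraries, with symbols for the replicates and the mean ± SD in black. The H3 points lie between 75.5 and 81.6 CPM after doxycycline, against 92.4 to 101 CPM in untreated libraries, whereas the H1, H2b and H4 points of the groups overlap.

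In unscaled counts the summed H3 genes still did not overlap, with 901, 1188 and 1302 counts after doxycycline, against 1342, 1471 and 1429 counts in untreated libraries. The summed H2a genes overlapped in unscaled counts, at 1028, 1589 and 1639 counts after doxycycline and 1611, 1815 and 1829 counts when untreated. As a share of all histone counts, H3 held 8.79%, 8.79% and 9.63% after doxycycline, against 10.1%, 10.3% and 10.2% in untreated libraries. H1 held 42.3%, 39.0% and 39.2% after doxycycline, against 38.3%, 38.6% and 37.9% in untreated libraries. H2b held 22.1%, 22.2% and 22.4% after doxycycline, against 21.4%, 21.3% and 21.2% in untreated libraries. The shares of these types did not overlap between the groups, although the H1 and H2b sums did. H2a held 10.03%, 11.8% and 12.1% after doxycycline, against 12.2%, 12.7% and 13.0% in untreated libraries, again with no overlap. The H3 and H2a shares were thus lower, and the H1 and H2b shares higher, in every doxycycline library than in any untreated one. The H4 shares overlapped, at 16.8%, 18.2% and 16.7% after doxycycline and 18.0%, 17.1% and 17.8% in untreated libraries. Shares within a library are tied to each other, so lower shares of some types raise those of others. In bulk tissue, fewer cells of a type and less RNA per cell cannot be told apart.

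Of the 11 H3 genes, 10 had a log2 fold change below 0, and for the same number every doxycycline library lay below every untreated one in CPM (14.4% of all genes tested). All 11 share at least 95% of their coding sequence with another H3 gene. How reads that match several copies were counted is not known here, so these genes may not be separate observations. The median log2 fold change was -0.31, and the smallest adjusted p among them was 0.222 (edgeR quasi-likelihood test, Benjamini-Hochberg over all genes). The level of H3 genes relative to their own untreated mean, as a median over the 11 genes, was -0.34, -0.33 and -0.30 on the log2 scale after doxycycline, against 0.07, -0.08 and -0.00 in untreated libraries.

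Hist2h3b, which encodes an H3 of the Hist2 cluster, had 2.18, 1.92 and 1.88 CPM after doxycycline, against 3.55, 2.83 and 3.17 CPM in untreated libraries. Its log2 fold change of -0.67 (SE 0.30, 95% interval -1.37 to 0.02, edgeR adjusted p = 0.222) was the lowest of the family, over only 26, 28 and 30 counts after doxycycline and 47, 45 and 47 counts when untreated. With offsets for GC content and transcript length it was -0.28, and several members lay lower, among them Hist1h2ae (-0.46), Hist1h3e (-0.41) and Hist1h2bh (-0.40). Its near copy Hist2h3c2 was the exception among H3 genes, with 5.11, 8.99 and 7.39 CPM after doxycycline, against 6.35, 5.90 and 7.01 CPM in untreated libraries. The groups overlap for Hist2h3c2 and its log2 fold change was 0.16 (SE 0.28). The coding sequences of these 2 genes are 99.8% identical, and how reads that match both were counted is not given in the sources used here, so their separate values are uncertain.

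Per 1000 coding bases the most abundant H3 gene was Hist1h3d, at 28.5 ± 2.27 CPM after doxycycline and 32.3 ± 1.35 CPM when untreated (SD, n = 3 each). Its libraries had 11.9, 12.6 and 10.7 CPM after doxycycline, against 13.9, 12.9 and 13.0 CPM when untreated, with a log2 fold change of -0.18. The annotated transcript of Hist1h3d is 1249 bases long, against 534 for Hist1h3a, and its rank depends on the length used. Hist1h3f had 10.3, 9.88 and 11.4 CPM after doxycycline, against 13.7, 11.7 and 11.7 CPM when untreated. Hist1h3a had 9.63, 11.1 and 9.90 CPM after doxycycline, against 12.7, 11.5 and 12.3 CPM when untreated. None of these ranges overlapped, and the gaps between them were narrow. The other H3 genes whose groups did not overlap ran from Hist1h3h, with a log2 fold change of -0.53, through Hist1h3g at -0.46 and Hist1h3e at -0.41, to Hist1h3i at -0.22.

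**Figure D2:**
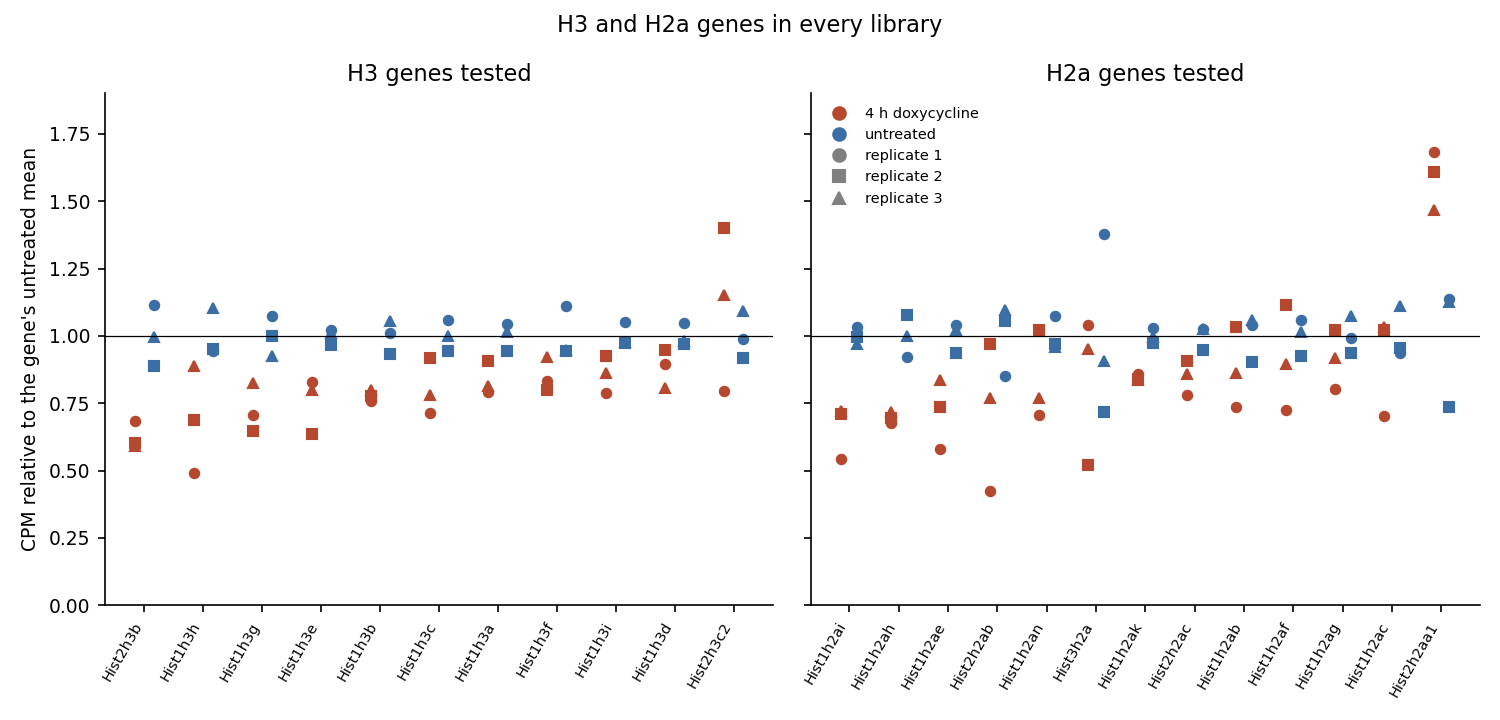
CPM of each tested H3 gene (left) and H2a gene (right) in every library, divided by that gene's untreated mean (y axis, starting at 0), with doxycycline points left of untreated points. For 10 of 11 H3 genes and 5 of 13 H2a genes all doxycycline points lie below all untreated points, and for Hist2h2aa1 they lie above.

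Of the 13 H2a genes tested, 12 had a log2 fold change below 0, with a median of -0.24. For 5 of them (Hist1h2ae, Hist1h2ah, Hist1h2ai, Hist1h2ak and Hist2h2ac) the doxycycline libraries lay below all untreated ones (14.4% of all genes), and for 1, Hist2h2aa1, above (15.2% of all genes). Hist1h2ai had 3.77, 4.94 and 5.01 CPM after doxycycline, against 7.18, 6.91 and 6.74 CPM in untreated libraries, and a log2 fold change of -0.60 (SE 0.26, 95% interval -1.19 to -0.01, edgeR adjusted p = 0.204), the smallest p of the family. With GC and length offsets its log2 fold change was -0.11 (edgeR adjusted p = 0.836).

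The most abundant H2a genes differed less. Hist2h2ac had 15.1, 17.5 and 16.5 CPM after doxycycline, against 19.8, 18.3 and 19.8 CPM when untreated, a log2 fold change of -0.23 (SE 0.17). Hist1h2ak had 15.7, 15.4 and 15.4 CPM after doxycycline, against 18.9, 17.8 and 18.3 CPM when untreated, a log2 fold change of -0.24 (SE 0.16). The groups overlapped for Hist1h2ab, at 9.97, 13.9 and 11.7 CPM after doxycycline and 14.1, 12.2 and 14.3 CPM when untreated. Hist2h2aa1 had few counts, 12, 14 and 14 after doxycycline and 9, 7 and 10 when untreated, and its log2 fold change of 0.66 had an edgeR adjusted p of 0.370. The other H2a genes tested lay between -0.52 for Hist1h2ah and -0.12 for Hist1h2ac.

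Of the 15 H2b genes tested, 12 had a log2 fold change below 0, with a median of -0.10, and the groups did not overlap for 3, Hist1h2bh, Hist1h2bn and Hist1h2bp (14.4% of all genes). Hist2h2bb was the most abundant H2b gene per coding length, at 106 ± 6.59 CPM per 1000 coding bases after doxycycline and 110 ± 8.09 when untreated (SD, n = 3 each). Its libraries overlapped, at 39.7, 43.0 and 38.0 CPM after doxycycline and 45.2, 39.1 and 41.4 CPM when untreated (log2 fold change -0.06, SE 0.12). Overlap was also seen for Hist1h2bm, at 16.8, 21.4 and 17.5 CPM after doxycycline and 20.3, 19.3 and 20.1 CPM when untreated. Hist1h2bb likewise overlapped, at 16.8, 19.8 and 16.4 CPM after doxycycline and 20.9, 17.7 and 18.9 CPM when untreated.

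At the ends of the H2b range, Hist1h2bp had 3.60, 4.87 and 4.26 CPM after doxycycline, against 5.44, 4.90 and 5.19 CPM when untreated, a log2 fold change of -0.28 (SE 0.27). Hist1h2bh, the H2b gene with the smallest p, had 11.1, 12.6 and 10.3 CPM after doxycycline, against 13.7, 12.9 and 13.8 CPM when untreated (edgeR adjusted p = 0.495). Hist1h2bc had 21.5, 15.4 and 15.9 CPM after doxycycline, against 17.1, 12.8 and 15.2 CPM when untreated, so that the groups overlapped at a log2 fold change of 0.23 (SE 0.21). The other H2b genes tested lay between -0.22 for Hist1h2bk and 0.23 for Hist1h2be. Hist1h2be had 14.2, 23.5 and 19.1 CPM after doxycycline and 14.2, 17.9 and 16.5 CPM when untreated.

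All 13 H4 genes encode the same protein in the annotation. Their log2 fold changes had a median of -0.16, with 12 of 13 below 0 (48.9% of all genes). The groups overlapped for every one of the 13 in CPM, whereas 29.6% of all genes tested had no overlap in either direction. Hist4h4 had 21.9, 27.5 and 23.6 CPM after doxycycline, against 30.1, 24.2 and 27.4 CPM when untreated, a log2 fold change of -0.16 (SE 0.16). Hist2h4 had 21.7, 27.2 and 22.4 CPM after doxycycline, against 29.5, 24.7 and 27.4 CPM when untreated, a log2 fold change of -0.20 (SE 0.16, edgeR adjusted p = 0.498). For both genes doxycycline replicate 2 lay above untreated replicate 2, the highest doxycycline and the lowest untreated library.

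Hist1h4d had 21.4, 20.0 and 17.4 CPM after doxycycline, against 23.0, 19.6 and 19.8 CPM when untreated. Hist1h4h had 11.8, 12.3 and 11.2 CPM after doxycycline, against 12.2, 11.3 and 11.2 CPM when untreated, and its log2 fold change of 0.02 was the only positive one of the type. The H4 genes not named with values here lay between -0.26 for Hist1h4i and -0.07 for Hist1h4k. Hist1h4m and Hist1h4n have identical coding sequences, with 48, 68 and 63 counts after doxycycline and 60, 73 and 67 when untreated for Hist1h4m, and 2, 13 and 12 counts after doxycycline and 12, 8 and 15 when untreated for Hist1h4n. The log2 fold change of -0.37 for Hist1h4n (SE 0.59) therefore rests on few reads that may belong to either copy. Over the family, 45 of 64 genes share at least 95% of their coding sequence with another member.

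Hist1h1c, which encodes H1.2, had 109, 86.8 and 86.5 CPM after doxycycline, against 101, 82.0 and 95.5 CPM when untreated, a log2 fold change of 0.02 (SE 0.12, 95% interval -0.26 to 0.30). Hist1h1b, which encodes H1.5, had 71.3, 73.2 and 64.0 CPM after doxycycline, against 78.9, 70.4 and 72.5 CPM when untreated. Hist1h1e, which encodes H1.4, had 70.0, 71.4 and 66.7 CPM after doxycycline, against 73.8, 71.4 and 69.2 CPM when untreated (log2 fold change -0.04, 95% interval -0.24 to 0.16). The groups overlapped for all 6 H1 genes, whereas 29.6% of all genes tested had no overlap in either direction. Hist1h1a, which encodes H1.1, had the smallest p of the type, at 49.4, 59.6 and 48.8 CPM after doxycycline and 59.5, 55.0 and 56.9 CPM when untreated (log2 fold change -0.12, edgeR adjusted p = 0.578). Hist1h1d, which encodes H1.3, had a log2 fold change of -0.02.

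Per 1000 coding bases, Hist1h1c led the family at 147 ± 20.1 CPM after doxycycline and 145 ± 15.1 CPM when untreated (SD, n = 3 each). It was followed in the untreated libraries by Hist1h1b and Hist2h2bb, both at 110 CPM, and by Hist1h1e at 108 CPM, whose levels did not differ from each other beyond their spread of 6.56, 8.09 and 3.51 CPM. By this measure, H1 members other than Hist1h1t all lay above the highest H3 member, Hist1h3d. Annotated transcripts differ in length, however, at 1560 bases for Hist1h1c, 7425 for Hist1h1d, 743 for Hist1h1b and 381 for Hist2h2bb. Coding length leaves out the rest of the transcript, so this order depends on the length used.

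Genes known for expression in the testis were near the detection limit. Hist1h1t had 17, 8 and 12 counts after doxycycline and 6, 17 and 10 when untreated. Hist1h2aa had 2, 1 and 1 counts after doxycycline and 0, 0 and 2 when untreated. Hist1h2ba had 1, 4 and 6 counts after doxycycline and 2, 2 and 6 when untreated. Another gene with too few counts for the test was Hist3h2ba, at 6, 12 and 18 counts after doxycycline and 4, 6 and 8 when untreated. Hist1h2ao, Hist1h2bq and Hist1h2br had 0 counts in all 6 libraries. A count of 0 allows up to 3 counts, or 0.188 to 0.251 CPM per doxycycline library and 0.188 to 0.227 CPM per untreated library, for counting error only. Hist1h2bq and Hist1h2br have identical coding sequences and Hist1h2ao is 99.2% identical to Hist1h2ag, and it is not known here how reads matching several copies were counted.

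**Figure D3:**
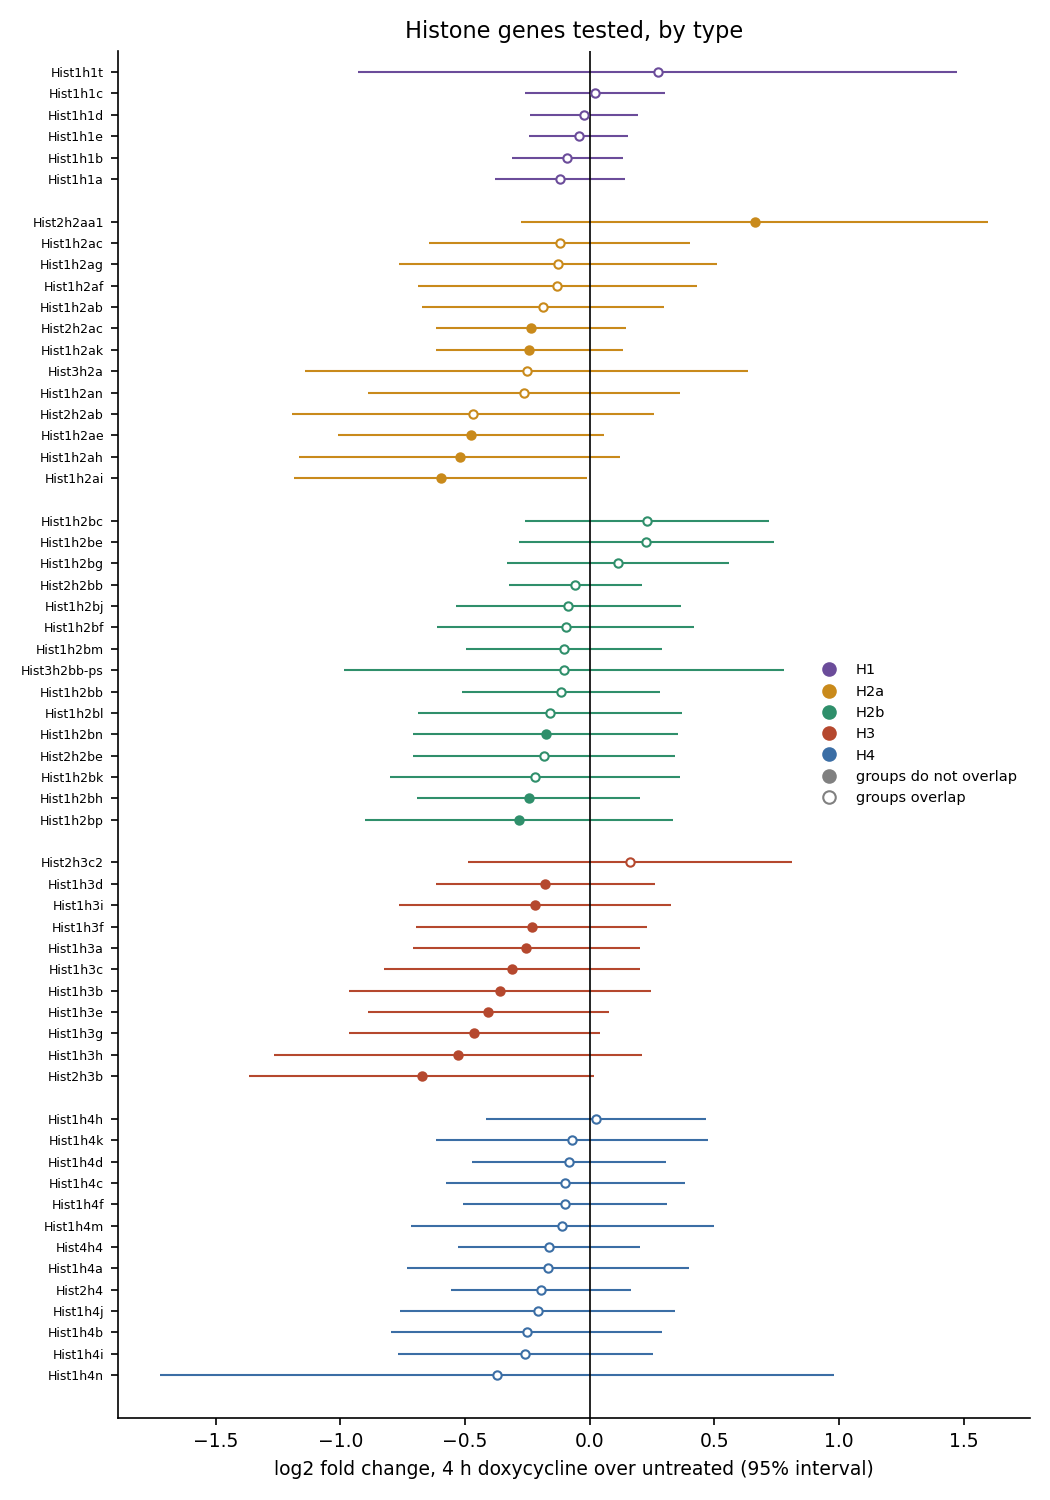
Log2 fold change of each of the 58 tested histone genes, doxycycline over untreated (x axis), with its 95% interval, grouped by type and sorted within a type. Filled points mark genes whose groups do not overlap in CPM (18 lower and 1 higher), and only the interval of Hist1h2ai leaves out 0.

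The H2a and H2b genes of the Hist1 cluster often lie head to head. In 8 annotated pairs the starts are 164 to 281 bases apart, and in 6 pairs both genes could be tested. The log2 fold change of the H2a gene was below that of its H2b partner in 5 of the 6, and with offsets for GC content and transcript length in 3 of the 6. For Hist1h2ae and Hist1h2bg it was -0.48 and 0.11, and the ratio of H2a to H2b CPM was 0.510, 0.695 and 0.686 after doxycycline, against 0.955, 0.947 and 0.948 in untreated libraries. For Hist1h2ai and Hist1h2bl it was -0.60 and -0.16, with ratios of 0.536, 0.643 and 0.748 after doxycycline, against 0.812, 0.909 and 0.901 in untreated libraries. The ratios of the groups did not overlap in these 2 pairs and overlapped in the other 4, among them Hist1h2an and Hist1h2bp, at -0.26 and -0.28. The differences within pairs were not tested. The H2a partners had the higher GC content in all 6 pairs, 70.0% against 63.3% for Hist1h2ai and Hist1h2bl, and 54.1% against 53.7% for Hist1h2ae and Hist1h2bg.

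**Figure D4:**
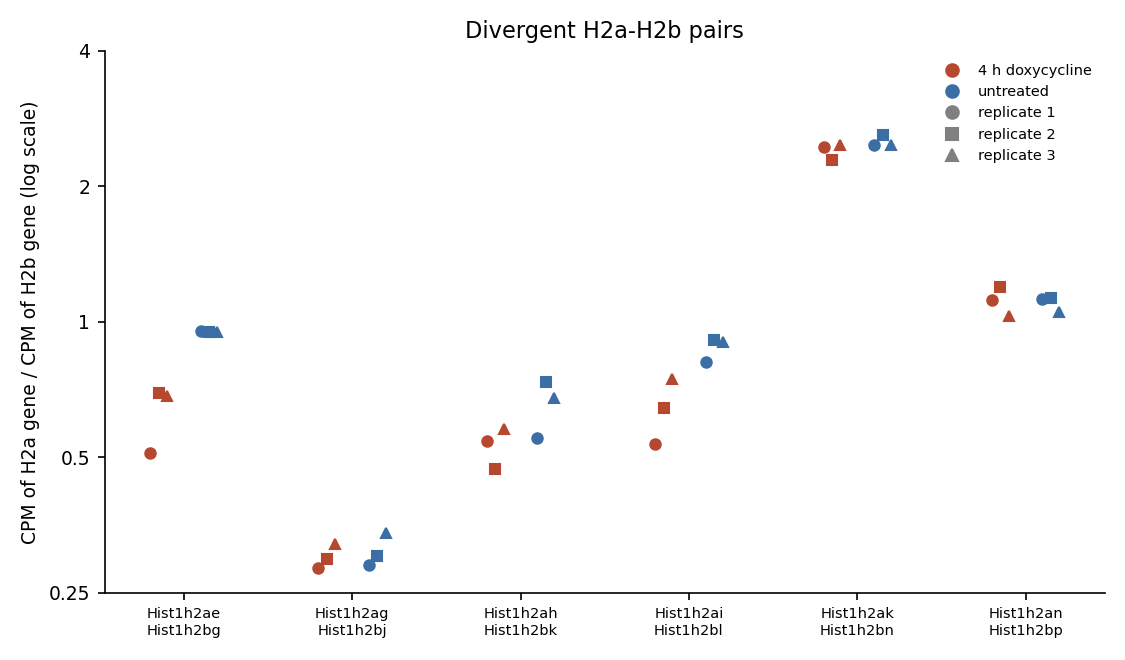
Ratio of the CPM of the H2a gene to that of its divergent H2b partner (y axis, log scale) in every library, doxycycline left of untreated, for the 6 pairs with both genes tested. The ratios for Hist1h2ae over Hist1h2bg lie between 0.510 and 0.695 after doxycycline, against 0.947 to 0.955 in untreated libraries, whereas those for Hist1h2ag over Hist1h2bj overlap.

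Promoters of 3 genes are shown as single examples that do not stand for their types. They are an H2a gene, the H2b partner of another H2a gene in the pair with the widest gap, and an H3 gene. They are RefSeq sequences of build GRCm38.p6, 250 bases before to 50 after the annotated start, 5′ to 3′ on the gene's strand. Capitals mark CCAAT (bound by NF-Y), TATAA and the octamer ATTTGCAT (bound by OCT1, the product of Pou2f1), each searched on both strands.
Hist1h2ai (chr13:21716162-21716461, plus strand): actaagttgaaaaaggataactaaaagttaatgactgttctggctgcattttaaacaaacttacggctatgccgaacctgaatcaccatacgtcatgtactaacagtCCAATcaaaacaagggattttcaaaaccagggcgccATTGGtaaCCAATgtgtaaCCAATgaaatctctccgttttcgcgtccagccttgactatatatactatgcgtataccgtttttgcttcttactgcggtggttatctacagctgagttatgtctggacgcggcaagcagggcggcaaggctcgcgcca
Hist1h2bg (chr13:23571150-23571449, plus strand): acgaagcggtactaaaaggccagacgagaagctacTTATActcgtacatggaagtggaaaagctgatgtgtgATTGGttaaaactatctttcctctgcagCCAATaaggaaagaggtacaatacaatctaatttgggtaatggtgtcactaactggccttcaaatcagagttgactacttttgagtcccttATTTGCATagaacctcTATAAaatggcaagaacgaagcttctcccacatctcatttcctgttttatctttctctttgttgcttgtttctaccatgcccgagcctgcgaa
Hist1h3e (chr13:23562336-23562635, minus strand): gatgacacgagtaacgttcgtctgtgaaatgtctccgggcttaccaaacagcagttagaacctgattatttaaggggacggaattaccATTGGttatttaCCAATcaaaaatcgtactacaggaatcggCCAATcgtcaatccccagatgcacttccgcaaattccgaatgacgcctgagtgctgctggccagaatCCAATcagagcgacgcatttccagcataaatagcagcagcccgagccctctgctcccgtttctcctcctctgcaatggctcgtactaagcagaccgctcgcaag
A promoter was matched for 58 members by symbol. CCAAT was in 100% of the H1, H2a, H2b and H3 promoters and in 3 of 12 H4 promoters (25%), against 37.4% of 32851 promoters of this length. TATAA was in 14 of 15 H2a, 13 of 16 H2b, 5 of 6 H1, 5 of 9 H3 and 11 of 12 H4 promoters, against 24.9% of all promoters. The octamer was in 7 of 15 H2a and 7 of 16 H2b promoters and in no H1, H3 or H4 promoter, against 1.74% of all promoters. The H2a and H2b shares were similar, although the Hist1h2ai promoter printed above has neither TATAA nor the octamer. Starts of divergent partners lie 164 to 281 bases apart, so their windows overlap and the same match can count for both types. The H2a and H2b shares are therefore not separate observations. Among octamer genes the log2 fold change ran from -0.52 for Hist1h2ah to 0.23 for Hist1h2be. A match is a description of the letters in this window and not a binding site.

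Genes were also grouped by the 3′ end of their annotated transcript. The 18 tested genes whose transcript ends within 100 bases of the stem-loop had a median log2 fold change of -0.16. The 21 whose transcript runs 100 bases or more past it, as Hist1h3d, Hist4h4 and Hist2h4 do, also had -0.16, and the 19 without a stem-loop in the annotation had -0.18. With offsets for GC content and transcript length these medians were 0.023, -0.23 and 0.036, and the median GC content of the groups was 60.2%, 50.9% and 63.3%. These differences were not tested. By cluster, the median was -0.17 for the 47 tested genes of Hist1 and -0.19 for the 8 of Hist2. Hist1h3a and Hist4h4, which carry the common forms of the stem-loop printed above, had -0.26 and -0.16, and the genes with a form found once had -0.46 (Hist1h3g), -0.17 (Hist1h4a) and -0.23 (Hist2h2ac). Transcripts that run on over neighbouring histone genes can share reads with them, and the strand setting of the counting is not given in the sources used here.

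The GC content of a gene moved with the fold change over the whole table. Members had a median GC content of 57.2%, against 49.8% for all genes tested. Among all genes with 60 to 65% GC the median log2 fold change was -0.20, against -0.13 for the 13 members there. At 65% GC or more it was -0.23 for all genes and -0.25 for 10 members. At 45 to 50% GC it was 0.03 for all genes and -0.12 for 9 members, and at 50 to 55% it was -0.05 for all genes and -0.20 for 10 members. Members above 55% GC thus had medians close to or above those of other genes of that GC content, and members below it had lower ones. GC content was that of the longest annotated transcript, which can run far past the stem-loop. For Hist1h1d it has 7425 bases, of which 666 are coding, and 39.8% GC. The GC range of a member, and the offsets below, therefore depend on the annotated length, which may differ from that of the RNA counted.

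With offsets for GC content and transcript length, 33 of 58 members were below 0 (59.0% of all genes) and their median was -0.04, against -0.06 over all genes. The H2a median was -0.01, H2b 0.10, H1 -0.05, H4 -0.16 and H3 -0.23, with 9 of 11 H3 genes below 0. The H3 median was thus the lowest of the 5 types with and without the offsets, and the H2a median was -0.01 with offsets and -0.24 without. Among the genes that were closer to 0 or of the other sign with offsets were Hist2h2ac, at -0.0075 with offsets and -0.23 without, and, in the same order, Hist1h3a at -0.044 and -0.26, Hist1h3h at -0.11 and -0.53, Hist1h3i at 0.19 and -0.22, and Hist1h2ah at -0.081 and -0.52. The part of GC content in these differences was not tested.

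**Figure D5:**
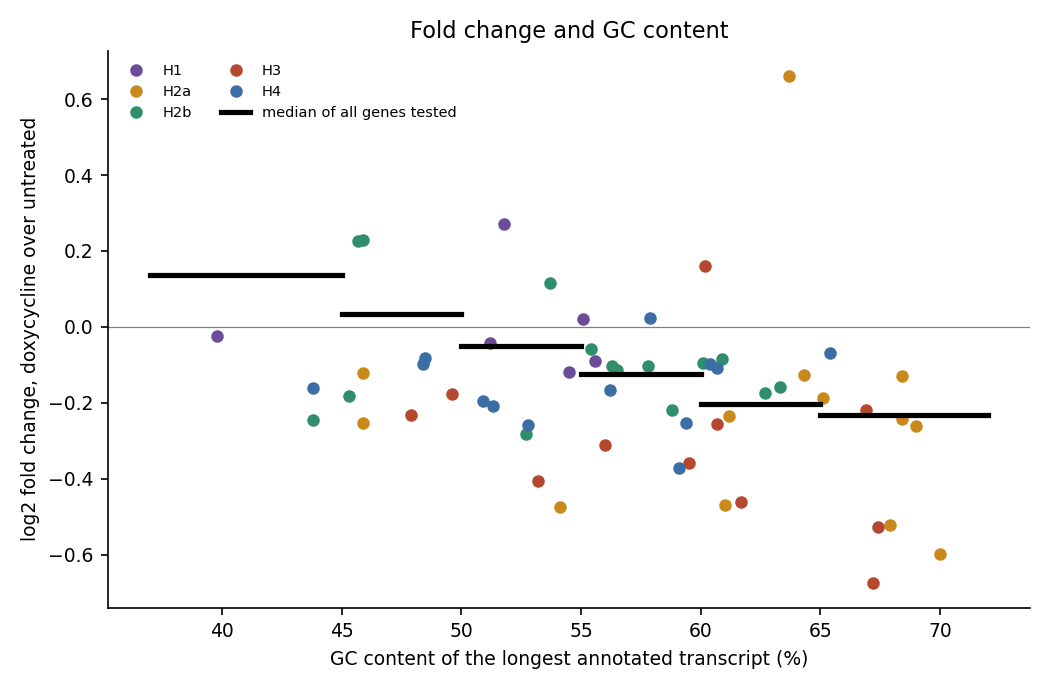
Log2 fold change, doxycycline over untreated (y axis), against the GC content of the annotated transcript (x axis, %) for the 58 tested histone genes, coloured by type, with the median of all genes tested in each GC range as a black line. The line is at 0.03 for 45 to 50% GC and at -0.23 for 65% or more, and H3 genes lie mostly below it.

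Counts were compared between libraries of different depth. Untreated replicate 2 held 1.23 times the counts of untreated replicate 1, and the median ratio per gene was 1.19 over all genes but 1.08 over 52 histone genes with at least 50 counts. Between doxycycline replicates 3 and 1 the total ratio was 1.32 and the medians were 1.33 over all genes and 1.34 over 44 histone genes. Between doxycycline replicates 2 and 1 the total ratio was 1.19, with medians of 1.21 over all genes and 1.39 over histone genes. In untreated libraries Hist1h1c had 2.11 counts per coding base, Hist1h1b 1.61 and Hist2h2bb 1.60, against a median of 0.402 over the family. Doxycycline replicates 2 and 3 are both deeper than untreated replicate 1. Their unscaled counts were both lower than those of untreated replicate 1 for 8 of 11 H3 genes, 5 of 13 H2a, 4 of 15 H2b, 2 of 13 H4 and 0 of 6 H1 genes, against 13.0% of all genes tested.

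Markers of several other cell types moved with the groups, and those of others did not. Here, markers that rose or fell are those past the adjusted edgeR threshold (2.84% of all genes higher, 2.18% lower). The 15 skeletal muscle markers summed to 1386, 2778 and 411 CPM after doxycycline, against 87.0, 222 and 98.2 CPM in untreated libraries, and 9 of 15 rose. The 12 fibroblast and mural markers summed to 1727 to 2046 CPM after doxycycline, against 1368 to 1411 CPM when untreated, and 4 of 12 rose. Macrophage markers summed to 566 to 808 CPM after doxycycline and 446 to 540 CPM when untreated, with 3 of 12 that rose. Endothelial markers summed to 342 to 408 CPM after doxycycline and 257 to 302 CPM when untreated, with 2 of 8 that rose. Neutrophil markers summed to 42.0 to 77.5 CPM after doxycycline and 99.8 to 159 CPM when untreated, with 1 of 7 that fell. By sign alone, log2 fold changes were above 0 for 15 of 15 muscle and 10 of 12 fibroblast and mural markers. They were also above 0 for 10 of 12 macrophage and 7 of 8 endothelial markers, and below 0 for 7 of 7 neutrophil markers tested. None of these markers listed in the table was at 0 in all libraries. Their part in the histone levels was not tested.

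Doxycycline replicate 2 had the highest muscle sum and, among doxycycline libraries, the highest H2a, H2b and H4 sums. Without it, 36 of 58 histone genes were lower with no overlap (23.9% of all genes), in place of 18 with all libraries. Leaving out a library can only raise such a count, for any gene. This count was 10 for H2a, 8 for H2b, 7 for H4 and 1 for H1, in place of 5, 3, 0 and 0. Without untreated replicate 2 the H4 count was 6 in place of 0 (19.4% of all genes were then lower with no overlap). No member passed the adjusted threshold in any of these fits.

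Over 6 lists of genes that act with the family or in the cell cycle, 7 of 104 genes tested passed the edgeR threshold (6.73%, against 5.02% of all genes). Of 13 genes for histone gene transcription none passed the edgeR threshold, and the smallest p was that of Nfya, an NF-Y subunit, at 94.8 ± 6.55 CPM after doxycycline and 119 ± 10.5 CPM when untreated (SD, n = 3 each, log2 fold change -0.33, edgeR adjusted p = 0.0891). Npat had 231, 201 and 183 CPM after doxycycline, against 162, 168 and 169 CPM in untreated libraries, with no overlap (log2 fold change 0.30, edgeR adjusted p = 0.102). With GC and length offsets its log2 fold change was 0.028 (edgeR adjusted p = 0.894). Casp8ap2, whose protein FLASH works with NPAT and in 3′ end cutting, had a log2 fold change of 0.17 (edgeR adjusted p = 0.277).

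Of 19 genes for histone mRNA processing and decay 1 fell, Sympk, which encodes the scaffold symplekin of the cutting complex, at 184 ± 5.72 CPM after doxycycline and 233 ± 4.19 CPM when untreated (SD, n = 3 each, log2 fold change -0.34, edgeR adjusted p = 0.0256). The median of the list was -0.09. Slbp had 86.8, 109 and 81.3 CPM after doxycycline, against 95.5, 93.5 and 99.7 CPM when untreated, and the groups overlapped (log2 fold change -0.06, edgeR adjusted p = 0.816).

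Of 11 histone variants listed as replication-independent, 2 fell. Most variants of this list are made throughout the cell cycle from mRNAs with poly(A) tails. Whether this holds for the 2 that fell was not examined here. H2afj had 33.8, 27.7 and 34.7 CPM after doxycycline, against 58.0, 56.8 and 62.6 CPM in untreated libraries, a log2 fold change of -0.88 (SE 0.12, edgeR adjusted p = 0.0136). H2afx, the variant phosphorylated at DNA breaks, had 49.7, 46.8 and 49.6 CPM after doxycycline, against 67.3, 67.9 and 65.4 CPM in untreated libraries, a log2 fold change of -0.46 (SE 0.09, edgeR adjusted p = 0.0324). Both are H2A variants, and their libraries lay far apart compared with the spread within groups. The other H2A variants of the list did not fall past the threshold, with log2 fold changes of 0.23 for H2afv, 0.05 for H2afy2, -0.01 for H2afz and -0.05 for H2afy. The H3 variants H3f3a and H3f3b, which encode H3.3, had log2 fold changes of 0.10 and 0.01, and the median of the list was -0.05.

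Of 21 chaperone and acetylase genes tested 1 rose, Atrx, a remodeller that works with the H3.3 chaperone DAXX (651 ± 38.9 CPM after doxycycline, 526 ± 18.3 CPM when untreated, log2 fold change 0.31, edgeR adjusted p = 0.0426), with a list median of -0.05. Of 25 S phase and DNA replication genes 2 fell, with a list median of -0.07 and 18 of 25 below 0. These were Pold1, a catalytic subunit of DNA polymerase delta (log2 fold change -0.37, edgeR adjusted p = 0.0419), and Cdt1, an origin licensing factor (log2 fold change -0.55, edgeR adjusted p = 0.0422). Of 15 mitosis genes 1 rose, Cenpf, a kinetochore protein (log2 fold change 0.40, edgeR adjusted p = 0.0234), with a list median of 0.05. With GC and length offsets only H2afj of these 7 genes passed the threshold, and Atrx had a log2 fold change of -0.01. None of the 7 passed when any 1 untreated library was left out, although the log2 fold changes over all leave-outs were close to those above, at -0.95 to -0.79 for H2afj, -0.48 to -0.43 for H2afx, -0.37 to -0.32 for Sympk and 0.37 to 0.45 for Cenpf. Without doxycycline replicate 3 only H2afj passed, and without doxycycline replicate 1 H2afj, Sympk and Cdt1 did.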

How the data were processed

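The authors deposited whole-number read counts per gene for 6 libraries. Per the submitters' processing notes these were made with TopHat2 2.0.8, TopHat and HTSeq on build mm9; their roles, the strand setting and how multiply mapped reads were handled are not given there. Of 21761 rows, 90 without a gene name (0.0361% to 0.0402% of counts) were left out of library sizes and tests. Counts were tested in R 4.3.3 with edgeR 4.0.16 (filterByExpr, TMM, robust quasi-likelihood test, two-sided, Benjamini-Hochberg over 14809 genes, threshold 0.05), after a check on simulated data. Standard errors are the log2 fold change over the square root of F; intervals are 95%. CPM is scaled by TMM-adjusted totals. DESeq2 1.42.0, limma-voom 3.58.1, library totals, GC and length offsets, a replicate block and leaving out each library were alternatives. Annotation is GENCODE M21 and RefSeq, another build (GRCm38) than mm9, used for sequence, GC content (longest transcript) and length only. Described for each type were the 3 genes with the highest mean CPM, the smallest p, and the most positive and most negative fold change; other genes were named after their values were seen. The members and lists were chosen with earlier results of these data known, so no list gets a test of its own.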

Additional observations from a re-analysis of the deposited data

How the results depend on the processing

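No histone gene passed the threshold under any alternative run. Over all genes, 421 were higher and 323 lower with all libraries; DESeq2 gave 892 and 789, limma-voom 261 higher, and the replicate block 215 and 179, while leaving out 1 library gave 11 to 1244 higher and 12 to 866 lower, the lowest without untreated replicate 1 and the highest without doxycycline replicate 2. Same-numbered libraries did not deviate together (correlations -0.010, -0.076 and 0.015, and none matched its own number best), so the block is not a pairing from the design. With GC and length offsets the median log2 fold change was -0.040 for the family, -0.0075 for H2a, 0.098 for H2b and -0.23 for H3; the replicate block with these offsets gave -0.042, -0.0077, 0.081 and -0.23. Signs that turned with the offsets were followed only for the histone genes chosen by rank and for selected list genes. They turned for Hist1h2ak (0.22), Hist1h2ab (0.15), Hist2h2bb (0.098), Hist1h2bm (0.041), Hist1h2bb (0.0046), Casp8ap2 (-0.087) and Atrx (-0.013). With the replicate block and offsets together these values were 0.22, 0.15, 0.096, 0.034, 0.0023, -0.096 and -0.015. Other members turned too, as 50 of 58 were below 0 without offsets and 33 with them. The cause was not tested.

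Genes past the threshold in the lists changed too. Library totals gave 1 for S phase and 2 for mitosis. DESeq2 gave 1 for transcription, 3 for processing, 3 for chaperones and 2 for mitosis, and limma-voom 1 for S phase. The offsets, the replicate block, and both together each gave 1 for the variants and 0 for processing, chaperones, S phase and mitosis. Leaving out 1 library gave 0 to 2 for the variants, 0 to 1 for transcription (1 without doxycycline replicate 1 and 1 without doxycycline replicate 2), 0 to 1 for processing, 0 to 3 for chaperones, 0 to 4 for S phase and 0 to 2 for mitosis, the highest without doxycycline replicate 2 and 0 without any 1 untreated library for all 6 lists. The medians then ran from -0.088 to -0.0072 for H1, -0.19 to -0.059 for H2b, -0.37 to -0.24 for H3 and -0.25 to -0.064 for H4 (lowest without untreated replicate 2, highest without doxycycline replicate 3). The log2 ratio of summed levels ran from -0.15 to -0.072 for the family, -0.34 to -0.18 for H2a and -0.23 to -0.088 for H4. Log2 fold changes that crossed 0 on leaving out 1 library were those of Hist1h1c (-0.099 to 0.081), Hist1h1t (-0.18 to 0.64), Hist1h4n (-0.73 to 0.030), Hist2h3c2 (-0.037 to 0.35), Hist1h4h (-0.013 to 0.060) and Slbp (-0.20 to 0.027). Genes lower with no overlap, an alternative added after seeing the data, can only become more frequent with fewer libraries; they numbered 18 to 36 for the family, 0 to 1 for H1, 5 to 10 for H2a, 3 to 8 for H2b and 0 to 7 for H4, and in unscaled counts 1 for H4. With 3 libraries a group and standard errors of 0.087 to 0.59, shifts of the size of the family median were not resolvable for single genes.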
